A study of Drosophila melanogaster with 21 samples.

Results

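Actin monomers assemble into the filaments that give a cell its cortex and its crawling edge, and actin-binding proteins set how fast those filaments grow and turn over. Profilin loads monomers for growth at the fast-growing end, capping protein closes that end, and cofilin severs old filaments and returns monomers to the pool. Drosophila has cytoplasmic actins, used by every cell, and muscle actins, used mainly by contractile tissue. The set described here was 8 genes, the actins Act5C, Act42A, Act57B and Act87E and the actin-binding proteins chic (profilin), tsr (cofilin), cpa and cpb (the alpha and beta subunits of capping protein), with the 3' and 5' actin control probesets of the array beside them. A member probeset was one whose single annotated gene symbol was a listed gene, out of 11982 genes with a probeset of their own in the table.

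Of the 8 genes, 5 had 1 such probeset each: Act87E, chic, tsr, cpa and cpb. Act5C, Act42A and Act57B had no probeset named for them alone and were not analysed here. The genes were chosen by name, and signal intensities of these same arrays had been seen when the choice was made. Which values were looked at is not recorded, so the levels and differences below are a description of these genes. The p-values, from fits over the whole table, place each probeset among all others and are not independent evidence that actin genes respond. The array carries 4 actin control probesets. The 3' and 5' controls belonged to the set, and the others, called M_f and M_r in the array's own naming, were added for comparison. Which actin gene the controls match is not given in the sources used here.

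Total RNA was measured in S2 cells, a Drosophila line of embryonic origin with blood cell character. The cells received interfering RNA against CoVa, which encodes subunit Va of cytochrome c oxidase in the mitochondrial electron transport chain, or, as control, against GFP, a sequence the fly genome lacks. Each group had 10 arrays from 3 independent time courses, with experiment 1 sampled at 48 and 168 hr after transfection and experiments 2 and 3 at 72, 96, 120 and 168 hr, which gave 10 pairs of the same experiment and time. A single array at 48 hr of experiment 1, whose title reads Control, was taken as untransfected cells and entered no comparison. All cells were of 1 line and, apart from the untransfected ones, were transfected in the same way, and arrays of an experiment share its cultures.

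CoVa itself read 7060 to 8962 on the GFP arrays and 804 to 8364 on the CoVa arrays. It was lower in 9 of 10 pairs, the exception being the 48 hr pair of experiment 1, where the array labelled CoVa RNAi read 8364 and its control 7336. The 72 hr arrays of experiment 3 had the lowest upper quartiles of signal, 442 for GFP and 480 for CoVa, against 491 to 592 on the other arrays compared. Of the blood cell markers, srp (2453 GFP, 2289 CoVa) and Pxn (1207 and 871) were well detected on average, whereas the plasmatocyte genes Hml and NimC1 had group means under 100. The summed signal of the 7 blood cell markers ran from 2130 to 6368 in GFP and from 2074 to 5894 in CoVa. The 5 muscle markers with a probeset summed to 4841 to 7242 in GFP and 5992 to 11321 in CoVa, with Mf rising from 3291 to 5722. Mlc2, at 2477 and 2835, did not pass the test (log2 difference 0.21, adjusted p = 0.369, limma). Mlc1, up and Prm, of the same list, had group means under 100, and Prm, the only 1 of them tested, did not pass (-0.06, adjusted p = 0.799, limma). PPO3, a lamellocyte enzyme, rose from 195 to 355 with atilla, the other lamellocyte marker, near the background. Of the blood cell list, the collagen gene Col4a1 fell from 422 to 195. In the same list vkg (555 GFP, 592 CoVa) and eater (219 and 249) were not lower and did not pass (adjusted p = 0.689 and 0.974, limma). These means pool experiments that differed. Experiment 3 minus experiment 2 gave log2 differences of -2.34 for Pxn and -2.71 for eater. For srp, vkg and Col4a1 it gave -0.37, -0.26 and 0.11. The part of these shifts and differences in the actin values was not tested.

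The actin control probesets were bright and fell late after CoVa knockdown. At 168 hr the 3' control read 7021, 6244 and 7987 on the GFP arrays of experiments 1, 2 and 3, and 4771, 4299 and 5309 on the CoVa arrays. The CoVa to GFP ratios within these pairs were 0.680, 0.689 and 0.665. At 120 hr experiment 2 read 6491 in GFP and 4901 in CoVa, and experiment 3 read 7381 and 5953. At 96 hr the pairs were closer, at 5683 (GFP) and 5217 (CoVa) for experiment 2 and 7109 and 6424 for experiment 3. At 72 hr the order was turned, with 6342 and 6532 in the former and 6373 and 6610 in the latter. The 48 hr pair read 6977 and 6852, and the untransfected array 7325. CoVa was thus lower in every pair from 96 hr on, and the 2 pairs at 72 hr stood slightly the other way. In bulk RNA, fewer cells with the transcript and less of it per cell cannot be told apart.

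The 5' control followed the same course at a lower signal. At 168 hr it read 3880, 3692 and 4632 in GFP and 2356, 2163 and 3097 in CoVa. At 120 hr the pair of experiment 2 read 3484 and 2279 and that of experiment 3 read 4603 and 3688. The 72 hr pairs read 3470 and 3359 (experiment 2) and 3703 and 4047 (experiment 3), and the pair at 48 hr 4102 and 4533, so that it was higher in CoVa in 2 of those 3 early pairs. The M_f control averaged 6998 ± 591 (SD, n = 10) in GFP and 6022 ± 775 in CoVa, and the M_r control 4834 ± 696 and 3885 ± 886. Each of the 4 controls was lower in CoVa in 8 of 10 pairs, a count whose share among all probesets was not computed. The controls were designed to 1 transcript class and share arrays, so they are not 4 separate observations.

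**Figure D1:**
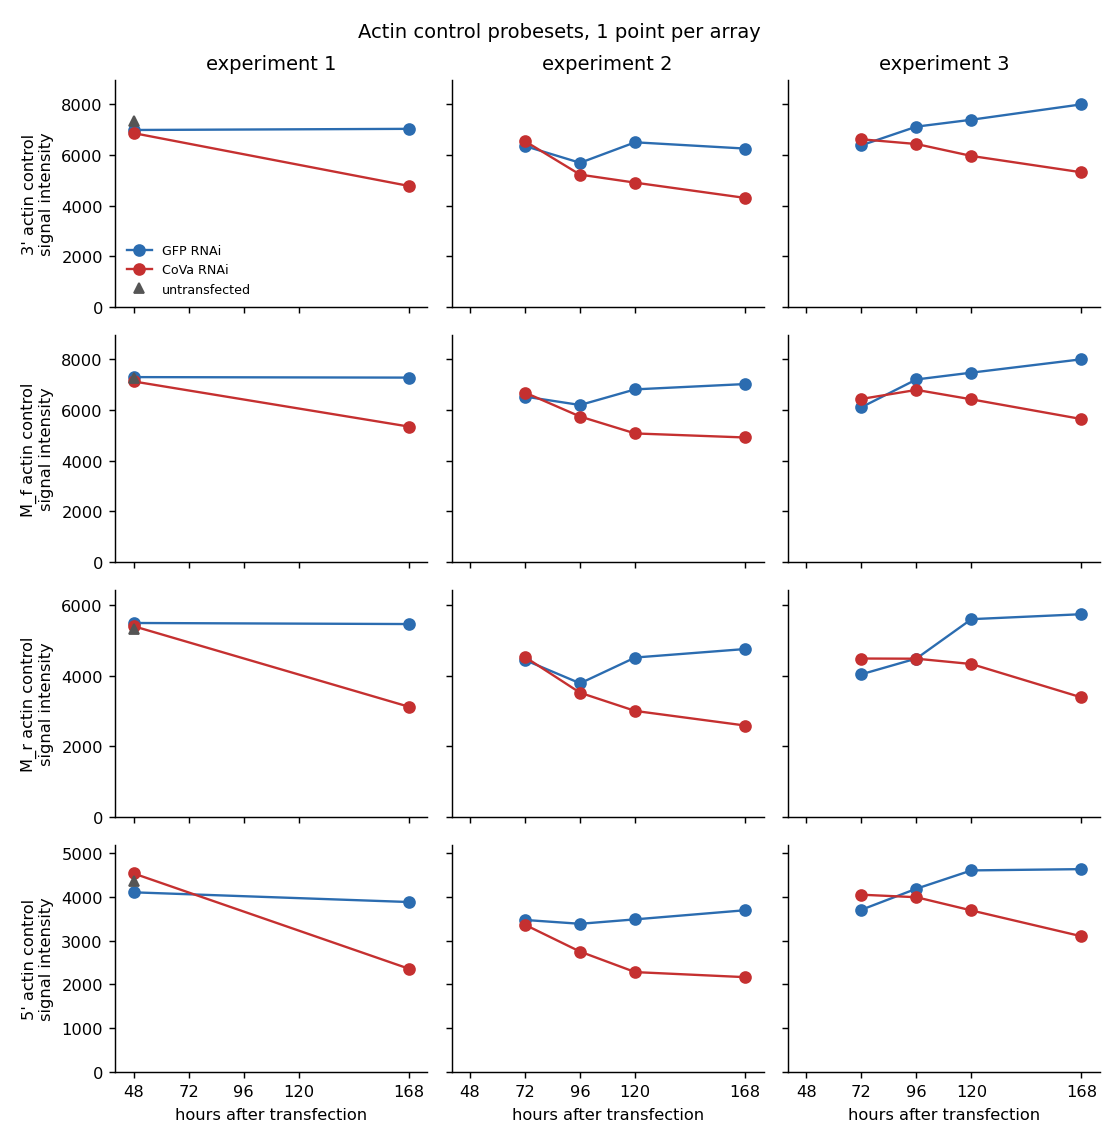
Signal intensity (linear) of the 4 actin control probesets against hours after transfection, 1 point per array, with a column for each experiment, GFP RNAi in blue, CoVa RNAi in red and the untransfected array as a grey triangle. The lines of the 2 conditions lie close at 48 and 72 hr and part by 168 hr, when the 3' control stood between 4299 and 5309 on the CoVa arrays and between 6244 and 7987 on the GFP arrays.

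Over all arrays the 3' control averaged 6761 ± 662 (SD, n = 10) in GFP and 5687 ± 900 in CoVa, a difference of -0.26 on the log2 scale (SE 0.09, adjusted p = 0.0432, limma with Benjamini-Hochberg adjustment). The 5' control averaged 3913 ± 454 and 3226 ± 832, a difference of -0.31 (SE 0.13, adjusted p = 0.0989). The M_f control differed by -0.22 (SE 0.07, adjusted p = 0.0406) and M_r by -0.33 (SE 0.12, adjusted p = 0.0626). This fit held no experiment, time or pair term and took the arrays as separate, although arrays of an experiment share its cultures. Its p-values and intervals, also those of the genes below, thus measure the scatter of single arrays, not the spread between experiments. The fits by time likewise took the arrays as separate and left the pairs out. Among the 6 tested probesets of the set, 4 genes and 2 controls, 1 was called lower and 0 higher, beside 6.49% lower and 11.3% higher among all 9862 tested. Of all calls 63.6% were thus higher, or 51.9% after quantile normalization. The median difference was -0.10 in the set and 0.04 over all probesets. With the experiment as a block, 3 were called lower (3' control, 5' control and tsr), with an adjusted p of 0.0306 for the 5' control, beside 10.5% lower and 16.9% higher of all probesets. Without the 48 hr pair, whose knockdown was not visible, 3 were called as well. The 3' control was no longer called when any 1 experiment was left out (adjusted p of 0.0993 without experiment 1, 0.164 without 2 and 0.124 without 3), although its difference stayed between -0.27 and -0.25.

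By time, the call came from 168 hr. The 3' control differed there by -0.56 (SE 0.14, adjusted p = 0.0144), a signal 0.679 of control, the 5' control by -0.68 (SE 0.21, adjusted p = 0.0476), M_f by -0.49 (SE 0.11, adjusted p = 0.0117) and M_r by -0.81 (SE 0.16, adjusted p = 0.00483), all by limma. So 2 probesets of the set were called lower and 0 higher, beside 7.48% and 9.14% of all probesets. At 120 hr the 3' control differed by -0.36 (SE 0.17, adjusted p = 0.383) and the 5' control by -0.46 (SE 0.26, adjusted p = 0.544), but with the experiment as a block both were called (adjusted p = 0.0476 and 0.0402). No probeset of the set was called by limma at 72, 96 or 120 hr without the block, and none had an unadjusted p under 0.05 there. Few were called in the whole table at those times, with 0.0304% lower and 0% higher at 72 hr. At 96 hr the shares were 0.122% lower and 1.39% higher, and 120 hr gave 0.73% lower and 2.32% higher. The calls at 168 hr rest on 3 arrays a group, and both were lost without experiment 1 (adjusted p = 0.0897 for the 3' control and 0.199 for the 5' control) or without experiment 2 (0.209 and 0.244).

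The difference of the actin controls grew with the hours after transfection. In the 10 matched pairs, the CoVa minus GFP difference of the 3' control changed by -0.13 log2 per 24 hr (SE 0.02, adjusted p = 0.00106, limma). The 5' control changed by -0.17 (SE 0.02, adjusted p = 0.00106), M_f by -0.12 (SE 0.02, adjusted p = 0.00302) and M_r by -0.20 (SE 0.03, adjusted p = 7.64e-04). Slopes of tsr (-0.05, SE 0.02, adjusted p = 0.0577), chic (-0.05, SE 0.02, adjusted p = 0.184), cpa (-0.04, SE 0.03, adjusted p = 0.336) and cpb (-0.02, SE 0.02, adjusted p = 0.395) did not pass the threshold. Slopes of the controls and of the binding proteins were not tested against each other. The slope fit held no experiment term and took the 10 pairs as separate points, although pairs of an experiment share its cultures. Its p-values thus measure the scatter of pairs around a line, not the spread between experiments. Of all probesets tested, 11.4% had a falling difference at this threshold and 11.7% a rising one. Without the 168 hr arrays neither control passed, with slopes of -0.14 and -0.21 (adjusted p = 0.177 and 0.116).

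**Figure D2:**
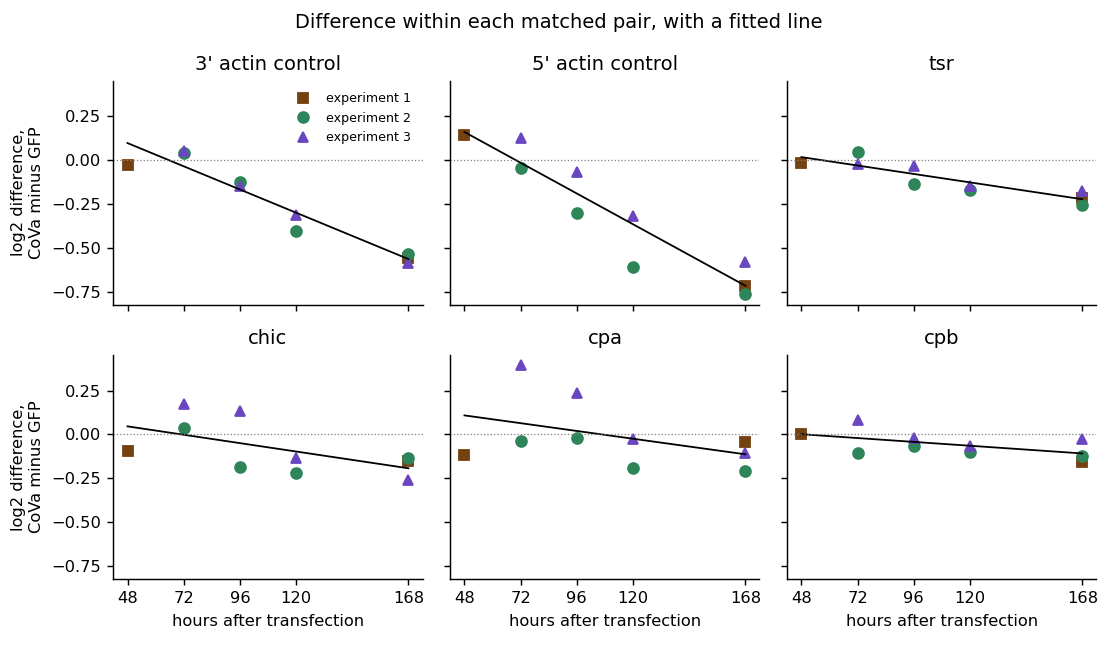
CoVa minus GFP difference of log2 signal within each of the 10 matched pairs against hours after transfection, with the experiment shown by symbol and a straight line fitted to the 10 points. The 3' and 5' actin controls descend from near or above 0 to between -0.76 and -0.54 at 168 hr, while tsr, chic, cpa and cpb stay closer to 0 there.

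No such decline was measured over culture time in the GFP controls. In the GFP arrays alone the slope per 24 hr was 0.03 for the 3' control (SE 0.02, adjusted p = 0.501) and 0.02 for the 5' control (SE 0.02, adjusted p = 0.545, limma with a level for each experiment). No probeset of the set was called in that fit in either direction, and 1, tsr at a slope of 0.03 (SE 0.01), had an unadjusted p under 0.05. Of all probesets, 0.0304% fell and 0.101% rose over culture time.

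The ratio of the 3' to the 5' signal of a control transcript is used to judge RNA integrity and labelling, both of which raise it when poor. For actin it averaged 1.73 ± 0.08 (SD, n = 10) on the GFP arrays and 1.81 ± 0.22 on the CoVa arrays, with 1.68 on the untransfected array. The CoVa ratio was the higher one in 6 of 10 pairs. In experiment 2 all 4 CoVa arrays had the higher ratio, at 1.94, 1.90, 2.15 and 1.99 against 1.83, 1.68, 1.86 and 1.69, whereas experiment 3 read 1.63, 1.61, 1.61 and 1.71 against 1.72, 1.70, 1.60 and 1.72. At 168 hr the log2 ratio was higher in CoVa by 0.13 ± 0.12 (SD, n = 3; exact sign-flip permutation test, 2-sided p = 0.50, the smallest possible being 0.25). The other control transcripts moved differently, with a GAPDH ratio of 1.42 ± 0.11 in GFP and 1.38 ± 0.10 in CoVa and an eIF-4a ratio of 2.67 ± 0.25 and 2.27 ± 0.23, lower in CoVa in all 10 pairs. The part of RNA integrity in the fall of the actin controls was not tested.

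**Figure D3:**
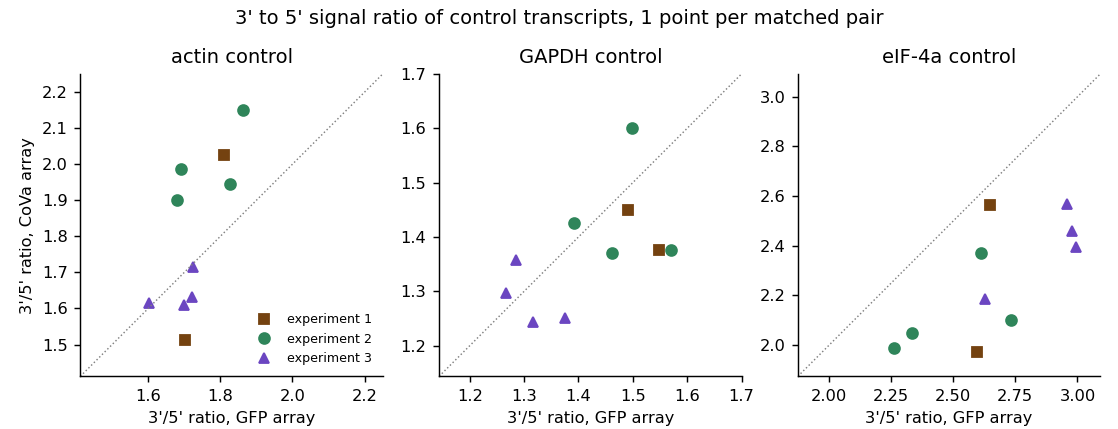
Ratio of 3' to 5' signal of the actin, GAPDH and eIF-4a control probesets on the CoVa array against that on the GFP array of the same pair, with the experiment shown by symbol and the dotted line marking equal ratios. Actin points of experiment 2 lie above the line and those of experiment 3 near it, and all 10 eIF-4a points lie below it.

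Of the binding proteins, tsr stood nearest to the actin controls. Cofilin was the product of 1 of the brightest probesets, ranking 6 by mean signal among 18952, and its signal was 86.4% to 100% of the highest value on its array. Whether a ceiling of the signal held down its differences was not tested. At 168 hr tsr read 15429, 15409 and 15478 in GFP and 13294, 12930 and 13730 in CoVa. At 120 hr it read 15297 and 15235 in GFP and 13583 and 13768 in CoVa. The 72 hr pairs read 14678 and 15176 (experiment 2) and 13891 and 13661 (experiment 3), and the pair at 48 hr 13689 and 13520. The CoVa array was lower in 9 of 10 pairs, every pair other than that at 72 hr of experiment 2. The difference over all arrays was -0.11 (SE 0.04, 14852 ± 648 against 13744 ± 603, adjusted p = 0.0609, limma), and at 168 hr -0.21 (SE 0.07, adjusted p = 0.0553), neither past the threshold. With the experiment as a block both were called (adjusted p = 0.0363 and 0.0203), and without the 48 hr pair the difference over all arrays was -0.12 (adjusted p = 0.0453).

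Profilin, the product of chic, varied more between experiments than between conditions. In experiment 2 chic read 7417, 7419, 7846 and 7496 in GFP at 72, 96, 120 and 168 hr, and 7609, 6532, 6724 and 6831 in CoVa. In experiment 3 it read 3317, 4558, 6741 and 7337 in GFP, and 3748, 5010, 6149 and 6133 in CoVa. The early arrays of experiment 3 were thus low in both conditions, and those of GFP climbed 2.21-fold from 72 to 168 hr and those of CoVa 1.64-fold. Experiment 1 read 7852 and 7488 in GFP and 7363 and 6728 in CoVa, with 7767 untransfected, so outside the 72 and 96 hr arrays of experiment 3 every array read 6133 or more.

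Such a climb was common in that experiment. In GFP, 2262 of 9862 probesets (22.9%) gained 1.5-fold or more from 72 to 168 hr of experiment 3, and in CoVa 2364 (24%), on a median ratio of 1.05 and 1.07. Experiment 3 minus experiment 2 gave -0.47 for chic (SE 0.12, adjusted p = 0.00589, limma), 0.22 for the 3' control (SE 0.08, adjusted p = 0.0329) and 0.39 for the 5' control (SE 0.10, adjusted p = 0.00416). That is 1 lower and 2 higher, beside 29.1% lower and 29.8% higher among all probesets, and the p-values measure the spread between arrays of 2 cultures. Without the 72 hr arrays of experiment 3 the difference of chic was -0.27 (adjusted p = 0.0205). When arrays were scaled to a common median, which moved the median of all probesets from -0.01 to -0.28, 4 were called lower and 0 higher, the 3' control turned to -0.05, and the share of higher calls among all calls went from 50.6% to 21.1%.

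Between conditions chic did not pass the test. It averaged 6747 ± 1540 (SD, n = 10) in GFP and 6283 ± 1144 in CoVa, a difference of -0.08 (95% interval -0.41 to 0.24, adjusted p = 0.798, limma), with CoVa lower in 7 of 10 pairs. At 168 hr it was lower in all 3 pairs, by -0.18 on average (SE 0.30, adjusted p = 0.790), against 0.11 at 72 hr (SE 0.37, adjusted p = 1.0).

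The capping protein subunits, which work as a dimer, were close in both conditions. For cpa the lowest, median and highest signals were 2698, 4110 and 4859 in GFP and 3552, 3886 and 4481 in CoVa, and for cpb 2312, 2777 and 3077 in GFP and 2451, 2640 and 3080 in CoVa. For both genes the CoVa values lay within or close to the GFP range. The difference was -0.01 for cpa (95% interval -0.18 to 0.16, adjusted p = 0.959, limma) and -0.06 for cpb (95% interval -0.17 to 0.05, adjusted p = 0.520). Each was lower in CoVa in 8 of 10 pairs. As with chic, the GFP arrays of experiment 3 were low for cpa early, at 2698 and 3213, against 4113 and 4000 later, while the CoVa arrays read 3552, 3794, 4034 and 3716.

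Act87E, a muscle actin, was near the background throughout. Its signal ran from 21.3 to 86.6 over the 21 arrays, reached 100 on none, and so it was not tested. It averaged 66.6 ± 14.8 (SD, n = 10) in GFP and 54.5 ± 15.2 in CoVa, lower in CoVa in 7 of 10 pairs, and ranked 10712 of 18952 by mean signal. At these signals a ratio says little about the transcript.

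**Figure D4:**
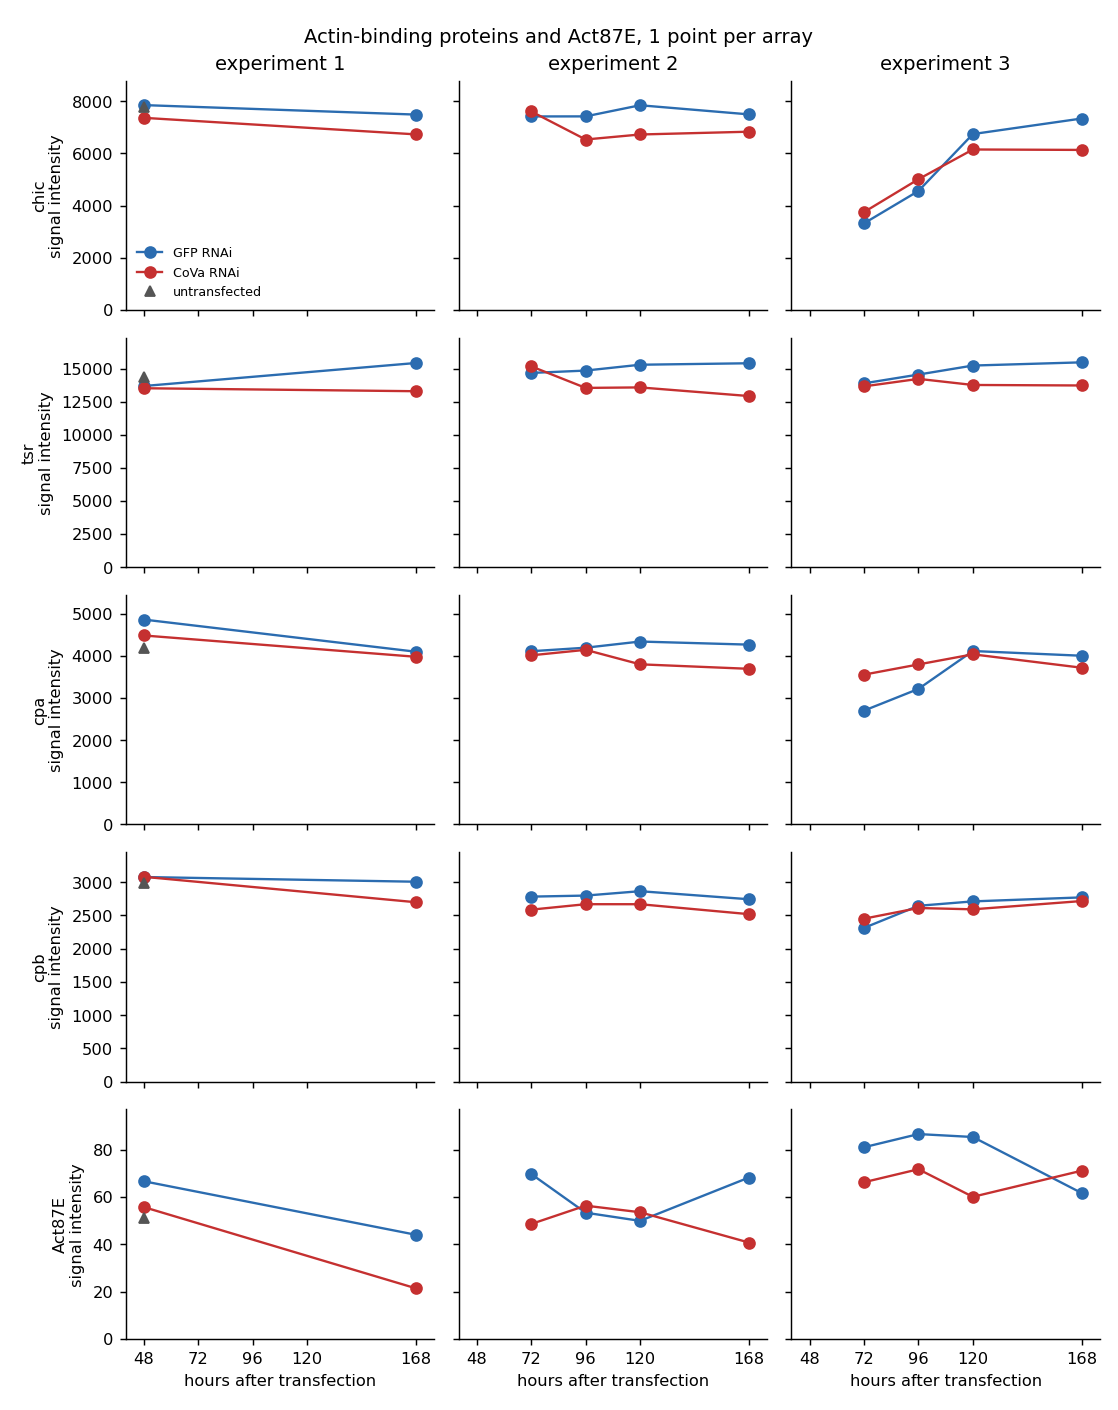
Signal intensity (linear) of chic, tsr, cpa, cpb and Act87E against hours after transfection, 1 point per array, with a column for each experiment and colours as for the actin controls. chic starts at 3317 in GFP and 3748 in CoVa at 72 hr of experiment 3 and reads 6133 or more there at 120 and 168 hr, whereas Act87E stays under 100 on every array.

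Genes whose log2 signal followed the 3' control most closely over the 20 arrays were CG5002 (Pearson r = 0.949, 316 GFP and 130 CoVa), Naa40 (0.916, 3994 and 3002), CG3436 (0.915, 832 and 695), CG4239 (0.908, 990 and 833) and Hat1 (0.905, 920 and 765). The 20 points share experiments and conditions, and the correlations are given as a description.

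Around the set, 86 other genes of the actin cytoskeleton and its partners were listed, of which 64 had a probeset and 60 were tested. Of these, 6 were lower (10%) and 5 higher (8.33%) over all arrays, and 49 did not pass, with a median difference of -0.02. Shares in the whole table, given above, were 6.49% and 11.3%, so the list as a whole stood near the background. At 168 hr 7 were lower (11.7%) and 3 higher (5.0%), beside 7.48% and 9.14% of all probesets. With the matched pair as a block the counts were 13 and 18 of 60, and of all probesets 16% were then called lower and 25.7% higher. Without experiment 2 the counts were 1 and 1, and without the 168 hr arrays 0 and 1. Statements below that a gene did not pass refer to the fit without the block unless it is named. Where a gene had several probesets, as Arpc3A and spir did with 3 each, only the brightest tested probeset is reported. The same choice was made for the cell type markers. Of all 9862 probesets, 587 (5.95%) were lower and 951 (9.64%) higher in every one of the 10 pairs, which is the background for counts of all 10 pairs. The background for smaller counts of pairs was not computed.

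The Arp2/3 complex, which starts branched filaments, had 2 of 6 tested subunits lower and 0 higher. Arpc4 fell from 2024 ± 182 to 1604 ± 268 (log2 difference -0.34, SE 0.09, adjusted p = 0.00962) and was lower in all 10 pairs, and Arpc3A fell from 2362 ± 196 to 2008 ± 271 (-0.24, SE 0.07, adjusted p = 0.0294) with 7 of 10 pairs lower. Arpc1 (-0.17), Arpc2 (-0.09), Arpc5 (-0.10) and the dim Arpc3B (0.23, adjusted p = 0.0861) did not pass over all arrays. Arpc3B, at 162 in GFP and 195 in CoVa, was higher at 168 hr (0.39, adjusted p = 0.0116), and with the pair block 3 subunits were called lower and it was called higher. None of the 5 SCAR and WASp regulators, which switch the complex on, and none of the 4 tested formins and spir passed without the block. With the pair block 3 of the former were called higher, SCAR among them (0.13, adjusted p = 0.0186), and of the latter spir (0.64, adjusted p = 3.88e-04) and capu (0.33, adjusted p = 0.00267) were higher and dia lower (-0.22, adjusted p = 0.0113).

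Among the 10 filament turnover genes 1 fell and 1 rose. Gel, a gelsolin that severs and caps filaments, fell from 4388 ± 1143 to 2767 ± 754 (-0.67, SE 0.17, adjusted p = 0.0083, lower in 10 of 10 pairs). The filament-binding protein coronin, coro, rose from 2729 ± 262 to 3214 ± 329 (0.23, SE 0.07, adjusted p = 0.0225). At 168 hr neither Gel nor coro was called (adjusted p = 0.129 and 0.0865, limma), but with the pair block both were (4.98e-04 and 0.00285). Gel also differed by -0.67 between experiments 3 and 2. Of the 8 tested tropomyosins and cross-linkers 1 passed over all arrays, alpha-Spec, the alpha subunit of the spectrin membrane skeleton, which rose from 3894 ± 573 to 4784 ± 626 (0.30, SE 0.10, adjusted p = 0.0381). At 168 hr alpha-Spec was not called (adjusted p = 0.421, limma), and Actn was called lower (-0.33, adjusted p = 0.0246). With the pair block alpha-Spec and shot (0.50, adjusted p = 2.85e-04) were called higher and kst lower (-0.36, adjusted p = 0.0219).

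Of 6 genes that tie filaments to membrane and adhesion sites, 2 rose and 0 fell over all arrays. Pax, the paxillin scaffold, rose from 2187 ± 388 to 2719 ± 283 (0.32, SE 0.10, adjusted p = 0.0251, higher in 10 of 10 pairs), and rhea, the talin that binds integrin tails, from 1874 ± 399 to 2315 ± 268 (0.32, SE 0.11, adjusted p = 0.0497). At 168 hr neither was called (adjusted p = 0.192 and 0.389). Moe, the moesin that ties filaments to the membrane, gave -0.12 (adjusted p = 0.779), and with the pair block 5 of the 6 were called higher, all but Moe. Mlc-c, a myosin light chain, fell from 10444 ± 412 to 9479 ± 351 (-0.14, SE 0.04, adjusted p = 0.0153, lower in 10 of 10 pairs). At 168 hr Mlc-c was not called (adjusted p = 0.0834, limma), but with the pair block it was (0.00865). Of the regulators of actin transcription, bs, the fly serum response factor, rose from 424 ± 44 to 569 ± 58 (0.40, SE 0.07, adjusted p = 3.62e-04), and its coactivator Mrtf gave 0.21 (SE 0.32, adjusted p = 0.746, or 0.0241 with the pair block).

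In the CCT chaperonin, which folds newly made actin and tubulin, 1 of 8 subunits fell. CCT6 dropped from 4086 ± 370 to 3115 ± 512 (-0.40, SE 0.09, adjusted p = 0.00311, lower in 10 of 10 pairs), while the differences of the other 7 lay between -0.09 and 0.01. Of the 5 tubulin genes tested, betaTub56D fell from 9101 ± 479 to 7929 ± 814 (-0.20, SE 0.06, adjusted p = 0.0194, lower in 9 of 10 pairs). The muscle actins Act79B (158 GFP, 116 CoVa) and Act88F (103 and 106) were dim, and neither passed, although Act79B was called lower with the pair block (-0.38, adjusted p = 0.0028).

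**Figure D5:**
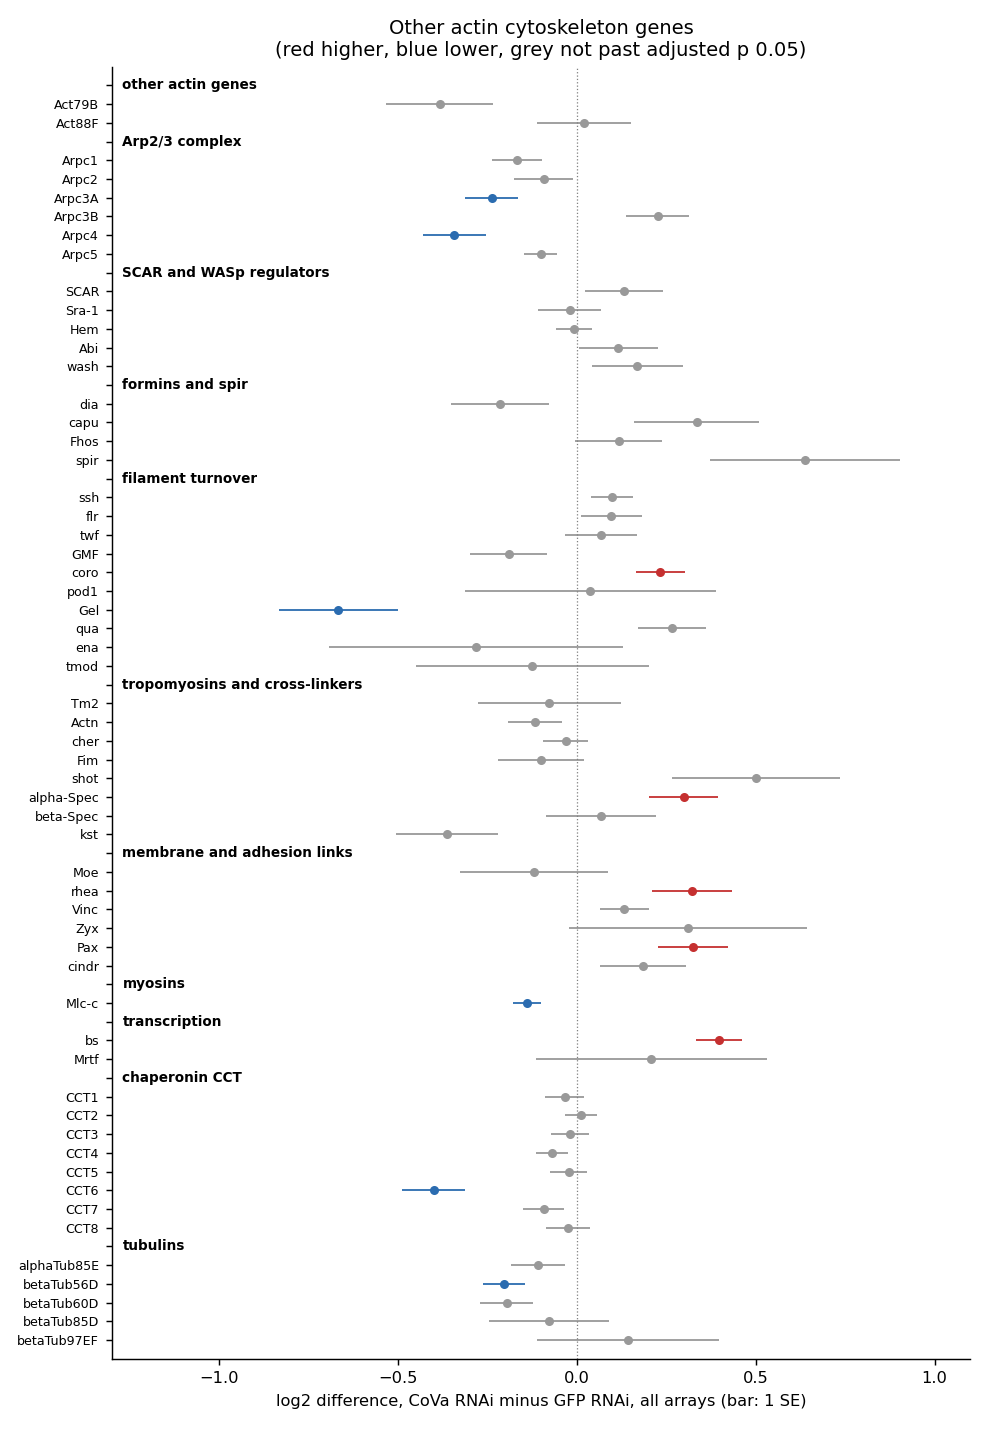
CoVa minus GFP difference of log2 signal over all arrays (point) with its SE (bar) for 57 of the 60 tested genes of the actin cytoskeleton list, ordered by group, with genes called lower in blue, called higher in red and the rest in grey. Calls fall on both sides of 0, with 6 lower and 5 higher.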

How the data were processed

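The 21 Affymetrix Drosophila Genome 2 arrays were compared as deposited. Cel files came from the Gene Chip Operating System, and the authors used dChip for normalization, with the median intensity array as baseline. The deposited values are linear signal intensities from 9.6 to 16299. Array medians lay between 67.5 and 94.4. Of 18952 probesets, 183 controls were left out except 4 of actin. The platform annotation gave 1 gene for 13646 probesets, several for 402 and none for 4725. A probeset was kept if it reached 100 on 3 or more of the 20 arrays, and log2(value + 32) was tested with limma 3.58.1 in R 4.3.3, so fold changes of dim probesets are understated. Adjusted p-values (Benjamini-Hochberg, threshold 0.05) cover all 9862 kept probesets. Groups came from the labels. The fit of all arrays, those by time and that of the slope over matched pairs held no experiment term. Deviations of paired arrays, which share an experiment and time, correlated at 0.582 to 0.956, so the experiment number pairs the arrays. The number of arrays limits the precision. The fits were run on simulated data whose arrays were drawn independently of each other. Such data hold no shared experiment or pair, so they do not show how the fits behave with correlated arrays.

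Members and gene lists were chosen with earlier results of these data known. From each group of the wider list the rule named at most 2 genes with the largest difference past the threshold, and other genes of that list, such as Arpc3B, spir, Mrtf, Moe and Act79B, were named after their values were seen. A group of that list enters its counts but is not reported here by name. Likeness was to be measured to Act5C and was measured to the 3' actin control instead, a change made after the annotation was seen. Alternatives changed the scaling, the value added, the filter, the variance model, the block and the arrays used. The array build is not given in the sources used here, so no coordinates or sequences are shown.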

Additional observations from a re-analysis of the deposited data

Results flagged for a closer look

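The CoVa effect on the actin controls differed between times, by the test of the slope over the 10 matched pairs (limma, Benjamini-Hochberg adjustment). The adjusted p was 0.00106 for the 3' control, 0.00106 for the 5' control, 0.00302 for M_f and 7.64e-04 for M_r. These values come from a fit that took the pairs as separate points, so they do not measure the spread between experiments.

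Among 54 groups of arrays looked at, 2 held an array far from the others, where chance alone gives about 1 in 20. In the 10 CoVa arrays, cpb read 3080 at 48 hr of experiment 1, and its gap to the next array, 2716, was 0.579 of the whole range. The 48 hr GFP array of that experiment read 3077. In the 4 CoVa arrays of experiment 3 the M_r control read 3386 at 168 hr, with a gap of 0.859 of the range to the other three, which ran from 4332 to 4488.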

How the results depend on the processing

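Among the 6 tested probesets, the count lower over all arrays was 1. It was 0 with quantile normalization, without the filter, without the 168 hr arrays and when any experiment was left out (0 to 0), 2 with 100 added, with 100 reached on all 20 arrays and with the trend and robust variance model, and 3 with the experiment block, the matched pair block or without the 48 hr arrays. The 2 lower at 168 hr became 0 with quantile normalization, 1 with 1 added, 1 without the filter, 0 to 2 with an experiment left out, and 3 with 100 added, with 100 reached on all 20 arrays, with the trend and robust variance model and with the experiment block. At 120 hr 0 became 2 with the experiment block. The 2 falling slopes became 0 without the 168 hr arrays, 1 with time as a factor, and 3 with 100 added, with 100 reached on all 20 arrays and with the trend and robust variance model. Experiment 3 against 2 gave 1 lower and 2 higher, which became 4 and 0 with a common median (3' actin control reversed to -0.0497), 0 and 1 in GFP or in CoVa arrays alone, and 1 higher without 168 hr. In the wider list, 6 lower and 5 higher became 3 and 1 with a common median, 10 and 8 with the experiment block, 13 and 18 with the pair block, 0 and 1 without 168 hr, 1 to 6 and 1 to 5 with an experiment left out, and 9 higher without the 72 hr arrays of experiment 3, chosen after seeing the data. Beyond the calls of tsr and the actin controls named in the report, the block changed no call of the set. The actin 3' to 5' difference, 0.13, was 0.22 with quantile normalization and 0.08 to 0.20 with an experiment left out. Quantile normalization moved all calls from 640 lower and 1116 higher (63.6% higher) to 735 and 792 (51.9%). For single probesets, 555 of 600 alternatives stayed on their side of the threshold, 23 lost a call, 21 gained one and 1 reversed a called value. A further 22, all of values not called, changed sign. Most of the 600 concerned values not called to begin with, many far from the threshold. The 555 therefore does not measure how stable the calls were. Over all arrays the 3' control lost its call in 6 of 15 alternatives. At 168 hr it lost its call in 3 of 11 and the 5' control in 5 of 11. The slope lost its call in 1 of 15 for the 3' control and 2 of 15 for the 5' control. The cause of these changes was not tested. Dim probesets such as Act87E lie near the background, and tsr lies near the highest signal of its arrays. Whether a ceiling of the signal held down the differences of tsr was not tested.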
